A study of Mus musculus with 6 samples.

Results

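Among the probe sets of the array that name a single gene, 101 belonged to the enzymes that reduce, oxidise or hydrate aldehydes, ketones, quinones and epoxides. They were chosen by gene symbol: the numbered aldehyde dehydrogenases (Aldh), aldo-keto reductases (Akr), alcohol dehydrogenases (Adh), carbonyl reductases (Cbr) and short-chain dehydrogenases (Dhrs), together with Nqo1, Nqo2, Ptgr1, Ptgr2, Ephx1 and Ephx2. They stand for 61 of the 18193 genes measured, and each gene was read at its brightest probe set (by mean log2 value over the 6 arrays). The livers came from male FRG mice aged 12 weeks on a C57Bl/6J background. All of them, the controls included, lack Fah, which completes tyrosine breakdown, and also Rag2 and Il2rg, so that T, B and NK cells are missing. Newborns of this line do not survive without NTBC. The 3 FRG+NTBC mice drank 16 mg/L NTBC, an inhibitor of Hpd upstream of Fah, without a break, and the 3 FRG-7dNTBC mice had been off the drug for 7 days. All mice ate a chow low in tyrosine and phenylalanine, and RNA from liver tissue of each mouse was hybridised to its own Affymetrix mouse genome array. Values are the deposited intensities on a linear scale in arbitrary units, and differences are given as log2 fold changes, FRG-7dNTBC minus FRG+NTBC, from limma with Benjamini-Hochberg adjustment over all probe sets.

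Aldehydes and ketones form in the liver from ethanol, amines, amino acids, retinol, steroids and oxidised lipids, and many of them react with proteins and glutathione. Aldehyde dehydrogenases oxidise them to acids. Aldo-keto reductases, carbonyl reductases and many short-chain dehydrogenases reduce them to alcohols, mostly with NADPH, and alcohol dehydrogenases interconvert alcohols and aldehydes with NAD. Nqo1 reduces quinones, Ptgr1 reduces the double bond next to a carbonyl group, and epoxide hydrolases open epoxides with water. Several of these genes, Nqo1 best known among them, are textbook targets of NRF2, which switches on antioxidant genes.

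The family did not move in a single direction after NTBC withdrawal. Of the 61 enzymes, 17 were higher in FRG-7dNTBC livers, 13 were lower and 31 did not pass an adjusted p of 0.05. This is 27.9% higher and 21.3% lower, where 17.4% and 12.7% of all 18193 genes passed in those directions (14% and 13.9% of all 45037 probe sets). The balance depended on the scaling: 15 members were higher and 18 lower after scaling the arrays to a shared 75th percentile, and 16 were higher and 17 lower after a further quantile normalization. The median log2 fold change of the members was -0.01, against -0.05 over all genes. At least 2-fold higher were 11 members, and 4 were at least 2-fold lower, where 8.94% and 4.95% of all genes passed these limits. The rises reached further than the falls: Cbr3, Ptgr1, Adh7, Nqo1 and Cbr1 were more than 5-fold higher, and the single member more than 5-fold lower was the pseudogene Adh6-ps1. Of all genes, 0.989% and 0.786% passed with changes of this size. For 34 members (55.7%) the groups did not overlap, which 46.2% of all genes also showed. Aldh1a2, Aldh3a1, Adh6a and Dhrs7c read below the highest value of the deleted gene Rag2 (22.5) in every mouse and were too dim to judge. With 3 mice against 3, no exact permutation test can give a p below 0.1, so the calls rest on limma's model. In whole liver, fewer cells of a type and less RNA per cell cannot be told apart.

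**Figure D1:**
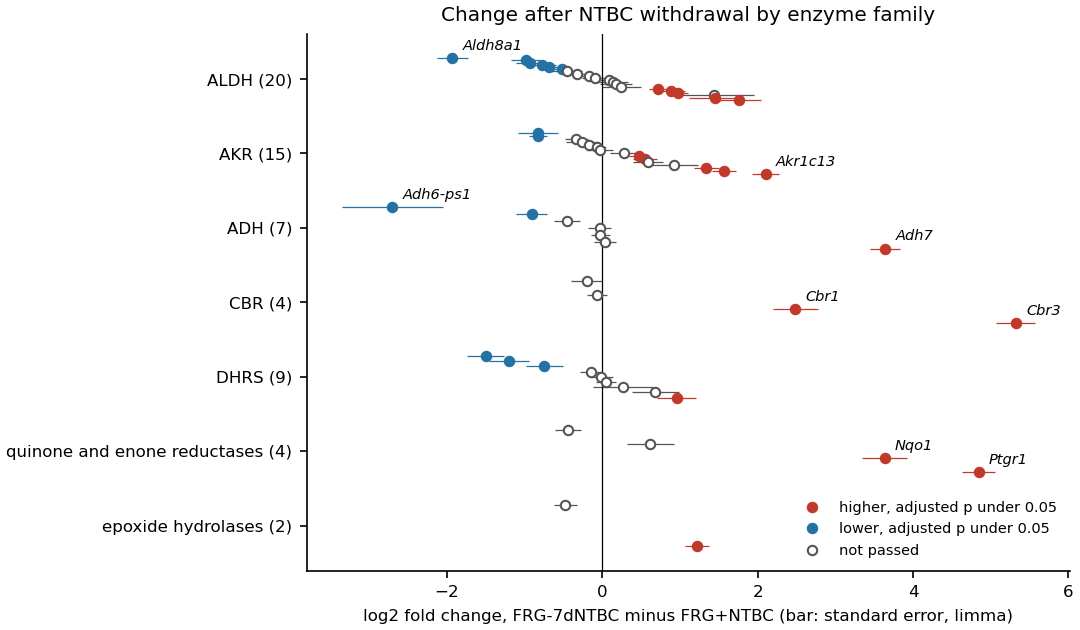
The horizontal axis gives the log2 fold change after withdrawal of each of the 61 enzymes by family, 1 point per gene with the standard error from limma as a bar. Filled points passed an adjusted p of 0.05 (red for the 17 that were higher, blue for the 13 that were lower), and the far right is held by Cbr3 (5.32), Ptgr1 (4.84), Adh7 (3.64), Nqo1 (3.63) and Cbr1 (2.49).

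Of the 4 carbonyl reductases, Cbr3 and Cbr1 rose and Cbr2 and Cbr4 did not pass. Cbr3 and Cbr1 are NADPH-dependent reductases of the cytosol, with Cbr1 acting on quinones and prostaglandins. They lie side by side on chromosome 16, with no protein-coding gene starting between them. Cbr3 read 304, 156 and 168 in the FRG+NTBC mice and 9089.6, 7434 and 7591 in the FRG-7dNTBC mice. Each withdrawn mouse lay far above each treated mouse, and in both groups replicate 1 was the highest, although equal numbers are not taken as pairs. The rise was 40.0-fold (5.32 on the log2 scale, SE 0.25, adjusted p = 2.14e-05), the largest of the 61 enzymes. Cbr1 read 1820.4, 803 and 923 in treated and 7231, 5874 and 5595 in withdrawn mice, a 5.6-fold rise (2.49 on the log2 scale, SE 0.29, adjusted p = 0.000664), again with replicate 1 the highest of each group. Without FRG+NTBC replicate 1, the log2 fold change was 2.85 for Cbr1 and 5.63 for Cbr3. Cbr2, an enzyme best known from the lung, stayed dim (27.6 ± 1.62 and 26.3 ± 2.7, SD, n = 3 mice per group), and Cbr4, a mitochondrial reductase of fatty acid synthesis, read 250.1 ± 45.3 and 219 ± 49.5 (-0.20 on the log2 scale, SE 0.20, adjusted p = 0.504).

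The upstream sequences of this neighbouring pair are shown because both genes rose together while their promoters differ. The RefSeq windows of the 250 bases before each start, on GRCm38.p6, are chr16:93607587-93607836 (plus strand) for Cbr1 and chr16:93682969-93683218 (plus strand) for Cbr3. Capitals mark the letters GCGTG on either strand, the core of the xenobiotic response element bound by the aryl hydrocarbon receptor, and no capitals stand in the Cbr3 window.
Cbr1: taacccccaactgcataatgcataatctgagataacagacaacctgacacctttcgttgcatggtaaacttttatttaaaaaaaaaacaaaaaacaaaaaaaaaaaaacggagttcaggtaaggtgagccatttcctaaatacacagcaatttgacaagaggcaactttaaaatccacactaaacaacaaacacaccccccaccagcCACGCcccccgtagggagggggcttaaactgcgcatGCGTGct
Cbr3: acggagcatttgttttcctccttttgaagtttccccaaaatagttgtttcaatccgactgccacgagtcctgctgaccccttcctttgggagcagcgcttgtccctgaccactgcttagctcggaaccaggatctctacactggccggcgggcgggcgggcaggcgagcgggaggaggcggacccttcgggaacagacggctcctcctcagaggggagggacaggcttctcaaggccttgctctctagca
In a global alignment the windows matched at 42.3% of the aligned columns. The Cbr1 window holds the letters 2 times, starting 43 and 7 bases before the start, and the Cbr3 window holds none. Of all genes with a window, 30.9% hold these letters, as do 11.8% of the higher members and 40.9% of those that did not pass. A link between the letters and the rises was not tested.

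Ptgr1 and Nqo1 rose, whereas their relatives Ptgr2 and Nqo2 did not pass at their brightest probe sets. Ptgr1, which reduces the double bond of prostaglandins and of lipid aldehydes, read 146, 102 and 165 on NTBC and 4640.3, 3236 and 3875 after withdrawal. The groups were far apart, with replicate 2 the lowest of each, and the rise was 28.7-fold (4.84 on the log2 scale, SE 0.21, adjusted p = 1.5e-05). Nqo1, which reduces quinones without forming radicals, read 315, 193 and 249 on NTBC and 3692, 1978 and 3956 after withdrawal. Replicate 2 was the lowest mouse of each group, although equal numbers are not taken as pairs. The rise was 12.4-fold (3.63 on the log2 scale, SE 0.29, adjusted p = 0.000139). Nqo2, a quinone reductase that does not use NADPH, read 446 ± 158 and 687 ± 249.6 at its brightest probe set (0.62 on the log2 scale, SE 0.31, adjusted p = 0.174). Its other probe sets fell by 1.09 and 1.25 on the log2 scale (adjusted p = 0.000938 and 0.0221), so the direction of Nqo2 depended on the probe set read. On NTBC the first of these was the brighter (673 ± 35.8). The choice over all 6 arrays therefore rests on the values after withdrawal. Ptgr2, a reductase of oxidised prostaglandins, read 1052 ± 163 and 776 ± 112 (-0.44 on the log2 scale, SE 0.17, adjusted p = 0.0887), and 1 of its 6 probe sets was lower. After 75th percentile scaling and after quantile normalization its brightest probe set passed on the lower side, at -0.57 (adjusted p = 0.0244) and -0.62 (adjusted p = 0.0158).

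Of the epoxide hydrolases, Ephx1 rose and Ephx2 did not pass. Microsomal Ephx1, which hydrates epoxides of drugs and pollutants, read 5113, 4576 and 5518 on NTBC and 12590, 13034 and 9947 after withdrawal, a 2.33-fold rise (1.22 on the log2 scale, SE 0.15, adjusted p = 0.000822). The lowest withdrawn mouse, replicate 3, stood well above the highest treated mouse. Soluble Ephx2, which acts on fatty acid epoxides, read 5518, 7132 and 6562 on NTBC and 4640.3, 4012 and 5184 after withdrawal and did not pass (-0.47 on the log2 scale, SE 0.15, adjusted p = 0.0529), although its groups did not overlap. Ephx2 passed on the lower side after both of these normalizations, at -0.60 each (adjusted p = 0.022 and 0.0226). A difference between the paired enzymes was not tested in either family.

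**Figure D2:**
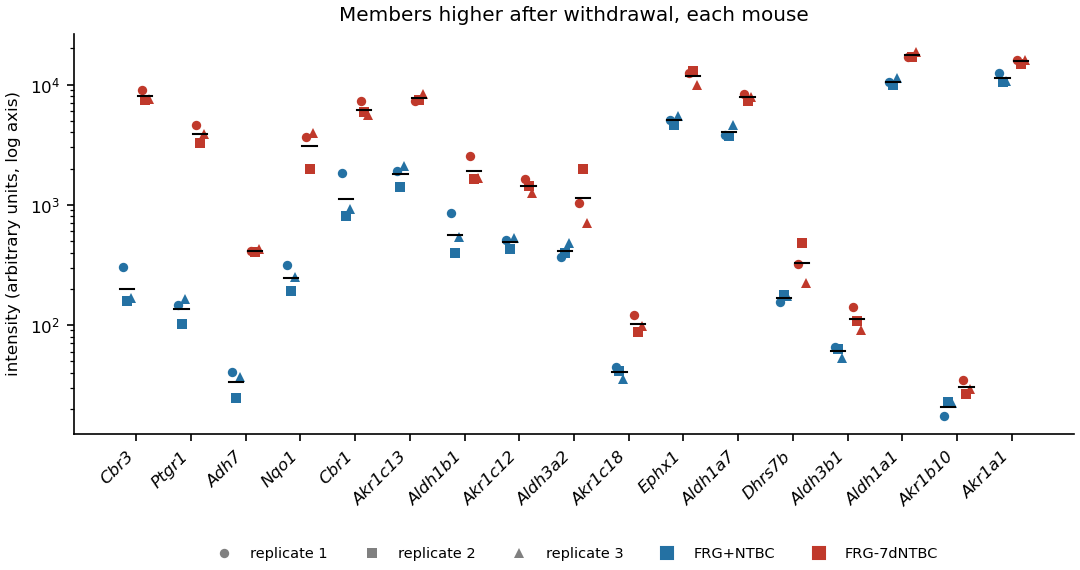
Intensity of each mouse (arbitrary units, log axis) for the 17 enzymes that were higher after withdrawal, ordered by log2 fold change, with FRG+NTBC in blue, FRG-7dNTBC in red, a marker for each replicate and the geometric mean of each group as a line. The groups stay apart for every gene shown, by the widest margin for Cbr3 (304 at most on NTBC, 7434 at least after withdrawal) and by a narrow one for Akr1a1 (12590 against 14766).

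Among 15 aldo-keto reductases, 5 were higher and 2 lower, and within them 3 of the 8 measured Akr1c genes rose and the other 5 did not pass. Akr1c enzymes reduce ketosteroids, prostaglandins and other carbonyls. Akr1c13 read 1924, 1409 and 2106 on NTBC and 7231, 7434 and 8422 after withdrawal, 4.3-fold higher (2.10 on the log2 scale, SE 0.17, adjusted p = 0.000157). Akr1c12 read 508, 425 and 530.1 on NTBC and 1652, 1418 and 1261 after withdrawal, 2.96-fold higher (1.56 on the log2 scale, SE 0.15, adjusted p = 0.000317). Neither gene had overlapping groups. A further probe set that the annotation lists under both names went from 1669 ± 215 to 7520 ± 892 (2.17 on the log2 scale, SE 0.15, adjusted p = 8.03e-05). The probes of genes this alike may bind each other's RNA, so their separate levels are uncertain. Akr1c18, which inactivates progesterone, rose from 40.3 ± 4.62 to 103 ± 17.5, 2.53-fold (1.34 on the log2 scale, SE 0.16, adjusted p = 0.000774).

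The other Akr1c genes of the same stretch of chromosome 13 did not pass. In chromosome order the cluster runs Akr1c14, Akr1c18, Akr1c13, Akr1c19, Akr1c12, Akr1c6, Akr1c20, Akr1c21 and Akr1e1 among the members, with no other protein-coding gene starting between neighbours. Akr1c19, which lies between Akr1c13 and Akr1c12, read 1833, 1226 and 1438 on NTBC and 1629, 1687 and 2106 after withdrawal, and its groups overlapped (0.28 on the log2 scale, SE 0.18, adjusted p = 0.293). Akr1c14, a hydroxysteroid dehydrogenase at the edge of the cluster, had a log2 fold change of -0.03 (SE 0.16), and the steroid reductase Akr1c6 one of -0.33 (SE 0.15). Akr1c6 passed on the lower side after 75th percentile scaling (-0.46, adjusted p = 0.0416). Akr1c20 stood at -0.26 and Akr1c21 at -0.07.

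The window of Akr1c12 at chr13:4279400-4279649 (minus strand) and that of Akr1c13 at chr13:4190937-4191186 (plus strand) are shown because these genes rose together and their upstream sequences are close to identical. Each is the RefSeq window of 250 bases before the start, on GRCm38.p6, and capitals mark the bases that differ or have no partner in the alignment.
Akr1c12: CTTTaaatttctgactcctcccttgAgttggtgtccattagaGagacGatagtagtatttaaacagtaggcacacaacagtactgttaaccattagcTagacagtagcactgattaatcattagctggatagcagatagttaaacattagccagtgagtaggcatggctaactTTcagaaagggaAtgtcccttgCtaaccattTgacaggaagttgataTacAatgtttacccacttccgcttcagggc
Akr1c13: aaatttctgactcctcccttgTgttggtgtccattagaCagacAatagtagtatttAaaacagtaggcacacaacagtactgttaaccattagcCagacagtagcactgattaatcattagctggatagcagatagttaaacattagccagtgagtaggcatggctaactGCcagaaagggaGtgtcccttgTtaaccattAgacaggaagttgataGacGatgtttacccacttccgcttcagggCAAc
They matched at 92.5% of the aligned columns, with 15 bases of each window in capitals. The other 20 pairs of Akr1c windows, which include Akr1c19 with each of them (59% and 60.3%), matched at 48% to 60.3%. Akr1c18, which also rose, matched Akr1c12 at 51.2% and Akr1c13 at 50.8%. A link between the sequences and the rises was not tested.

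**Figure D3:**
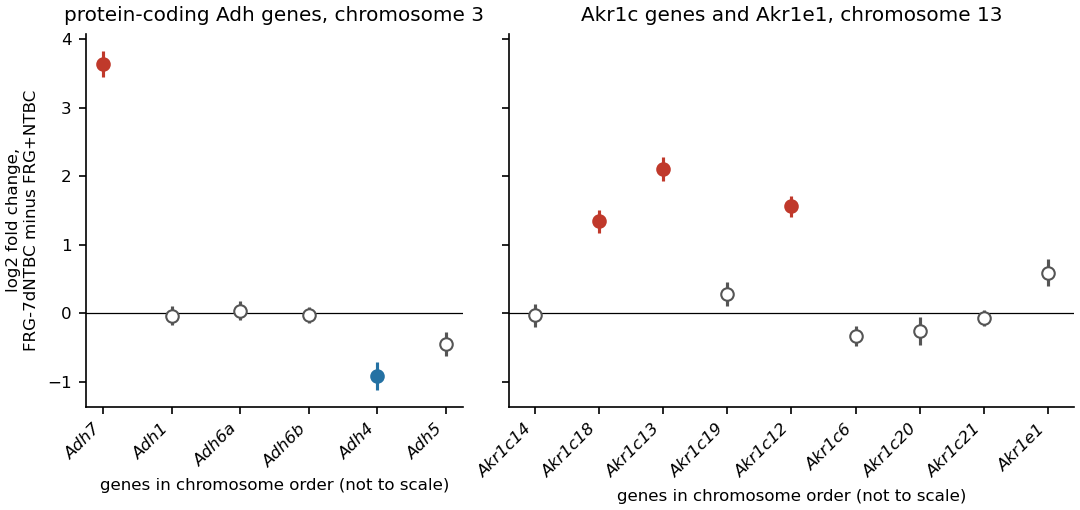
The vertical axis gives the log2 fold change after withdrawal (bars are standard errors from limma) of the protein-coding Adh genes on chromosome 3 (the pseudogene Adh6-ps1, lower at -2.70, is not drawn) and of the Akr1c genes with Akr1e1 on chromosome 13, in chromosome order and not to scale. Red points were higher, the blue point lower and open points did not pass: Adh7 stands at 3.64 beside Adh1 at -0.03, and Akr1c19 at 0.28 between Akr1c13 at 2.10 and Akr1c12 at 1.56.

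The aldo-keto reductases outside the Akr1c group moved less, and both ways. Akr1a1, the general aldehyde reductase, rose from 11304 ± 1116 to 15583 ± 709.6 at its brightest probe set (0.47 on the log2 scale, SE 0.13, adjusted p = 0.027). Its other 3 probe sets rose more, by 1.22 to 1.30, so its call did not rest on a single probe set, although the brightest one no longer passed after either other normalization, with the replicate block or without 4 of the mice in turn. Akr7a5, which reduces succinic semialdehyde and aflatoxin dialdehyde, fell from 5664 ± 237 to 3192 ± 88.5 (-0.83 on the log2 scale, SE 0.11, adjusted p = 0.00134) with the groups far apart, although without _s_at, _x_at and _a_at probe sets it was read elsewhere and did not pass (-0.63, adjusted p = 0.0832). Akr1d1, the reductase of bile acid precursors, fell from 1279.5 ± 129 to 751 ± 252 (-0.83 on the log2 scale, SE 0.25, adjusted p = 0.0437), a call that ended when any of the FRG+NTBC mice was left out. Akr1b10 was higher at 30.4 ± 4.23 against 20.8 ± 2.83 (0.55 on the log2 scale, SE 0.16, adjusted p = 0.0355), but on NTBC it lay at the level of Rag2, its 2 other probe sets did not pass, and its call ended when any of 5 mice was left out. Its neighbour Akr1b8 read 71, 46.5 and 76.1 on NTBC and 152, 74 and 153 after withdrawal, with FRG-7dNTBC replicate 2 at the level of the treated mice (0.93 on the log2 scale, SE 0.31, adjusted p = 0.0595). Without that mouse the log2 fold change of Akr1b8 was 1.27 (adjusted p = 0.00459). Akr1e1 stood at 0.59 on the log2 scale (adjusted p = 0.0556) at its brightest probe set and fell by 0.89 (adjusted p = 0.00435) at the other.

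Of the 7 alcohol dehydrogenase genes, Adh7 rose, Adh4 and the pseudogene Adh6-ps1 fell, and Adh1, Adh5, Adh6a and Adh6b did not pass. Adh7, the class IV enzyme of the stomach and other epithelia, oxidises retinol and ethanol. It read 40.5, 24.6 and 37 in FRG+NTBC livers, just above the level of Rag2, and 413, 407 and 425 in FRG-7dNTBC livers. The withdrawn mice differed little from one another, and the rise was 12.5-fold (3.64 on the log2 scale, SE 0.19, adjusted p = 2.85e-05). At the other probe set of Adh7 the log2 fold change was 1.15 (adjusted p = 0.0494), so the size of the rise depended on the probe set. On NTBC that other probe set was the brighter (73.2 ± 5.63 against 34.0 ± 8.36). The probe set read here ranks as brightest only through its values after withdrawal. Adh1, the main ethanol dehydrogenase of the liver and the next gene on chromosome 3, read 12766, 11426 and 12331 on NTBC and 13970, 11666 and 10297 after withdrawal, with overlapping groups (-0.03 on the log2 scale, SE 0.15, adjusted p = 0.889). Adh4, the class II enzyme, fell from 1332 ± 105 to 727 ± 217 (-0.91 on the log2 scale, SE 0.20, adjusted p = 0.0126), and Adh5, which removes formaldehyde bound to glutathione, read 5062 ± 530.3 and 3731 ± 712 (-0.45 on the log2 scale, SE 0.17, adjusted p = 0.0876). Adh5 passed on the lower side after both other normalizations, at -0.58 and -0.60. Adh6-ps1 varied among treated mice (26.5, 237 and 72.5) and ended at 11.3, 12.9 and 11.4, below the level of Rag2, so the size of its fall is not exact (-2.70 on the log2 scale, SE 0.66, adjusted p = 0.0176). The calls of Adh4 and Adh6-ps1 ended without moderation of the variances, that of Adh4 also without FRG+NTBC replicate 2, and that of Adh6-ps1 also without either treated replicate 3 or withdrawn replicate 1.

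The 250 bases before a start of Adh7, chr3:138217523-138217772 (plus strand) on GRCm38.p6 from RefSeq, are shown because Adh7 is the gene of its cluster that rose. The RefSeq span of the gene begins at 138198064, so this start lies inside it. Which start the livers use was not tested. Capitals mark the letters TGANTCA, the site of AP-1 factors, which start 25 bases before this start.
Adh7: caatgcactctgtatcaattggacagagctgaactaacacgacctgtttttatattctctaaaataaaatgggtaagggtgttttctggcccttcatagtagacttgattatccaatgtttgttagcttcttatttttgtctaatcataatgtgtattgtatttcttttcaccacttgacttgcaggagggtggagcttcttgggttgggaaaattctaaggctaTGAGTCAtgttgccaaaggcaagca
Among members that were at least 2-fold higher, Adh7 was the only 1 of 11 with these letters in its window (9.09%). Of all genes with a window, 7.82% hold them, a similar share. Aldh1a1, which was higher by less than 2-fold, also has them, 57 bases before a start. A link between the letters and the rise was not tested.

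The 20 aldehyde dehydrogenases divided into 5 higher and 6 lower. The enzymes of acetaldehyde and retinal contributed 3 of the rises and those of fatty and aromatic aldehydes the other 2. These role groups were drawn up after the values were seen and carry no test. Aldh1a1, which makes retinoic acid from retinal, read 10441, 9947 and 11426 on NTBC and 16962, 16845 and 18690 after withdrawal, 1.65-fold higher (0.72 on the log2 scale, SE 0.12, adjusted p = 0.00344). Its neighbour and close relative Aldh1a7 rose from 4021 ± 482 to 7856 ± 598 (0.97 on the log2 scale, SE 0.14, adjusted p = 0.00151), with the same reserve about probes shared between close relatives. Mitochondrial Aldh1b1 had the largest rise of the family, from 849, 393 and 537 to 2521, 1641 and 1675, 3.38-fold (1.76 on the log2 scale, SE 0.29, adjusted p = 0.00314). Mitochondrial Aldh2, the main acetaldehyde dehydrogenase, went the other way. It read 7750.1, 9089.6 and 8719 on NTBC and 5956, 6039 and 5753 after withdrawal, lower by a margin beyond the spread of either group (-0.52 on the log2 scale, SE 0.12, adjusted p = 0.014), and 1 of its 4 other probe sets fell by 1.58. Without FRG+NTBC replicate 2 the call for Aldh2 at the brightest probe set ended (log2 fold change -0.47, adjusted p = 0.0604).

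Aldh3a2, the fatty aldehyde dehydrogenase of the endoplasmic reticulum, read 369.6, 396 and 481 on NTBC and 1038, 1992 and 704 after withdrawal. FRG-7dNTBC replicate 2 was the highest by far, and the rise was 2.74-fold (1.46 on the log2 scale, SE 0.34, adjusted p = 0.0144). The call ended without FRG+NTBC replicate 1 or replicate 2 (adjusted p = 0.055 and 0.0573) and without moderation. Aldh3b1, which oxidises lipid aldehydes at membranes, rose from 60.8 ± 6.41 to 113 ± 26 (0.88 on the log2 scale, SE 0.18, adjusted p = 0.00898). Aldh3a1, an inducible enzyme best known from cornea and stomach, read below Rag2 on every array (5.71 ± 0.162 and 6.08 ± 0.526).

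Of 6 enzymes of amino acid and amine breakdown, a group drawn up after the values were seen, 3 fell and the other 3 did not pass. Their median log2 fold change was -0.57. Of all genes, 12.7% were lower. Aldh8a1, an enzyme of the kynurenine pathway of tryptophan, read 4640.3, 4608 and 4608 on NTBC and 1652, 1113 and 969 after withdrawal. The treated mice were nearly equal, the withdrawn mice were all far lower, and the fall was 3.81-fold (-1.93 on the log2 scale, SE 0.20, adjusted p = 0.000375), the largest among the members that are not pseudogenes. Its other probe set stood at -1.03 (adjusted p = 0.116). Aldh9a1, an enzyme of carnitine synthesis, fell from 7369.9 ± 669 to 3776 ± 839 (-0.99 on the log2 scale, SE 0.19, adjusted p = 0.00571), and Aldh5a1, which removes succinic semialdehyde, from 641 ± 57.5 to 399 ± 28.1 (-0.68 on the log2 scale, SE 0.13, adjusted p = 0.00557). Aldh4a1 of proline breakdown stood at -0.46 on the log2 scale (adjusted p = 0.134) and Aldh6a1 of valine breakdown at -0.32 (adjusted p = 0.19). Aldh4a1 passed on the lower side after 75th percentile scaling (-0.59, adjusted p = 0.0436) and after quantile normalization (-0.64, adjusted p = 0.0377), which makes 4 of the 6 lower. In the whole table, 9669 probe sets were lower after the first and 6210 after the second, against 6262 before. Aldh7a1 of lysine breakdown stood at 0.18 at its brightest probe set (adjusted p = 0.573), while its 2 others fell by 1.26 and 0.87 (adjusted p = 0.000457 and 0.00286).

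Aldh1l1, which oxidises formyl folate, fell from 5419 ± 188 to 2903 ± 724 (-0.93 on the log2 scale, SE 0.18, adjusted p = 0.00719), and Aldh16a1, which lacks a catalytic residue, from 593 ± 92.6 to 347 ± 71 (-0.78 on the log2 scale, SE 0.19, adjusted p = 0.016). The call for Aldh16a1 ended without FRG+NTBC replicate 1. Aldh18a1, which starts proline synthesis, read 20.2, 41.6 and 44.9 on NTBC and 84.5, 45.6 and 197 after withdrawal, with FRG-7dNTBC replicate 2 close to the treated mice (1.44 on the log2 scale, SE 0.52, adjusted p = 0.0726). Without that mouse its log2 fold change was 1.94 (adjusted p = 0.013). Without moderation of the variances, 2 aldehyde dehydrogenases were higher and 3 lower, and the calls for Aldh1b1, Aldh3a2, Aldh3b1, Aldh1l1, Aldh9a1 and Aldh16a1 ended.

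**Figure D4:**
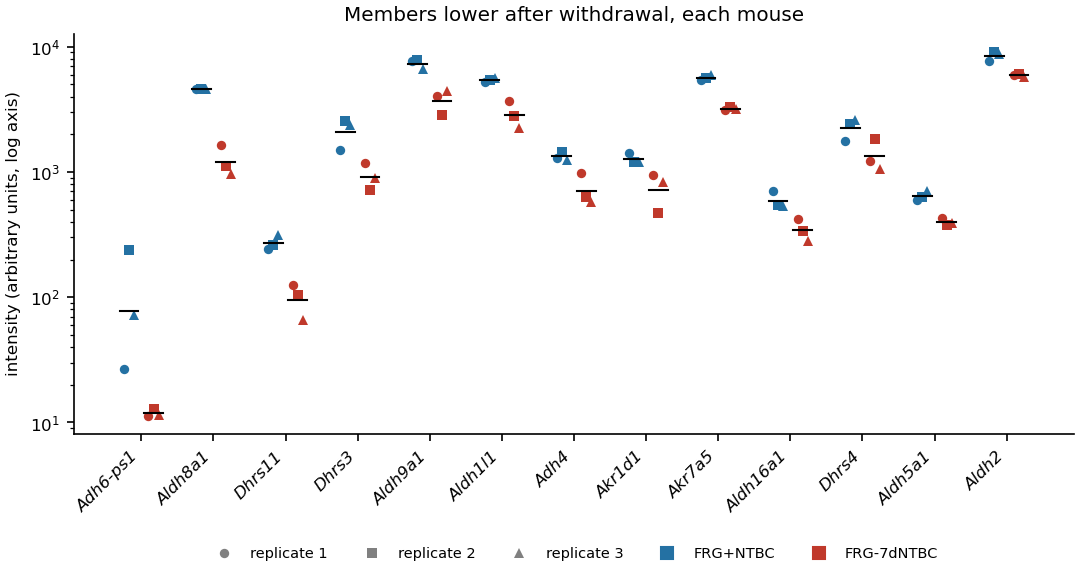
Intensity of each mouse (arbitrary units, log axis) for the 13 enzymes that were lower after withdrawal, ordered by log2 fold change, with FRG+NTBC in blue, FRG-7dNTBC in red, a marker for each replicate and the geometric mean of each group as a line. Dhrs4 is the gene whose groups overlap (FRG-7dNTBC replicate 2 at 1833, FRG+NTBC replicate 1 at 1771), and Aldh8a1 shows the tightest treated group (4608 to 4640.3).

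Of 9 short-chain dehydrogenases of the Dhrs family, 3 were lower and 1 was higher. Dhrs3, which turns retinal back into retinol, read 1499, 2574 and 2369 on NTBC and 1184, 714 and 891 after withdrawal, 2.3-fold lower (-1.20 on the log2 scale, SE 0.25, adjusted p = 0.00938). Dhrs11, a cytosolic reductase of ketosteroids, read 241, 259.6 and 315 on NTBC and 126, 105 and 65.8 after withdrawal, 2.83-fold lower (-1.50 on the log2 scale, SE 0.24, adjusted p = 0.00273). The groups of both genes stayed apart, although neither call held without moderation. Dhrs4, a peroxisomal reductase of retinal and other carbonyls, fell by 0.74 (adjusted p = 0.0476) with overlapping groups, and its other probe set stood at 0.98 (adjusted p = 0.188). The call for Dhrs4 ended without FRG+NTBC replicate 2 or 3 and without FRG-7dNTBC replicate 1 or 3. Dhrs7b, a peroxisomal enzyme of ether lipid synthesis, read 154, 177 and 174 on NTBC and 319.6, 484 and 224 after withdrawal (0.96 on the log2 scale, SE 0.26, adjusted p = 0.0258), and its call ended when any FRG+NTBC mouse or FRG-7dNTBC replicate 1 was left out. The members not described further, Aldh1a3, Aldh3b2, Aldh1l2, Akr1cl, Adh6b, Dhrs2 and Dhrs13, did not pass and had log2 fold changes from -0.17 (Akr1cl) to 0.25 (Aldh1l2).

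The withdrawn mice did not rank alike across the enzymes. Of the 17 members that were higher, FRG-7dNTBC replicate 1 had the highest value of the withdrawn group for 9 and replicate 2 the lowest for 10. Of the 13 that were lower, replicate 1 was the least reduced for 8. The Dhrs genes ranked otherwise, since replicate 2 was the highest for 6 of 9, against 17 of all 61 members. The 6 include Dhrs7c, which was too dim to judge, and Dhrs13, whose log2 fold change was -0.01. For Dhrs1, Dhrs4, Dhrs7 and Dhrs7b, replicate 2 was the highest and replicate 3 the lowest in all 4, and Aldh3a2 had the same order. These genes were picked out after their values were seen. Dhrs7, for instance, read 331, 431 and 172 after withdrawal against 205, 161 and 179.8 on NTBC, and its log2 fold change was 0.68 (adjusted p = 0.138), or 1.06 (adjusted p = 0.00325) without replicate 3. The same mice stood at opposite ends of the second principal component of all 45037 probe sets, at -46.5 for replicate 2 and 49.5 for replicate 3. What sets them apart was not tested.

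Probe sets of a gene could differ, and in 4 genes a dimmer one passed where the brightest did not. Of the 22 members with several probe sets, none had probe sets called in opposite directions, 5 had all of them called alike and 6 had none called. Nqo2, Aldh7a1 and Akr1e1 did not pass at the brightest probe set, which lay on the higher side, and were lower at 2, 2 and 1 of the others. Ptgr2, on the lower side at its brightest probe set, was lower at 1 other. With a gene's probe sets averaged, Aldh7a1 was lower (log2 fold change -0.65, adjusted p = 0.00379), while Nqo2 (-0.58) and Akr1e1 (-0.15) did not pass. Probe sets may read different transcript ends or cross-hybridise, and which of them follows the enzyme's mRNA was not tested.

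**Figure D5:**
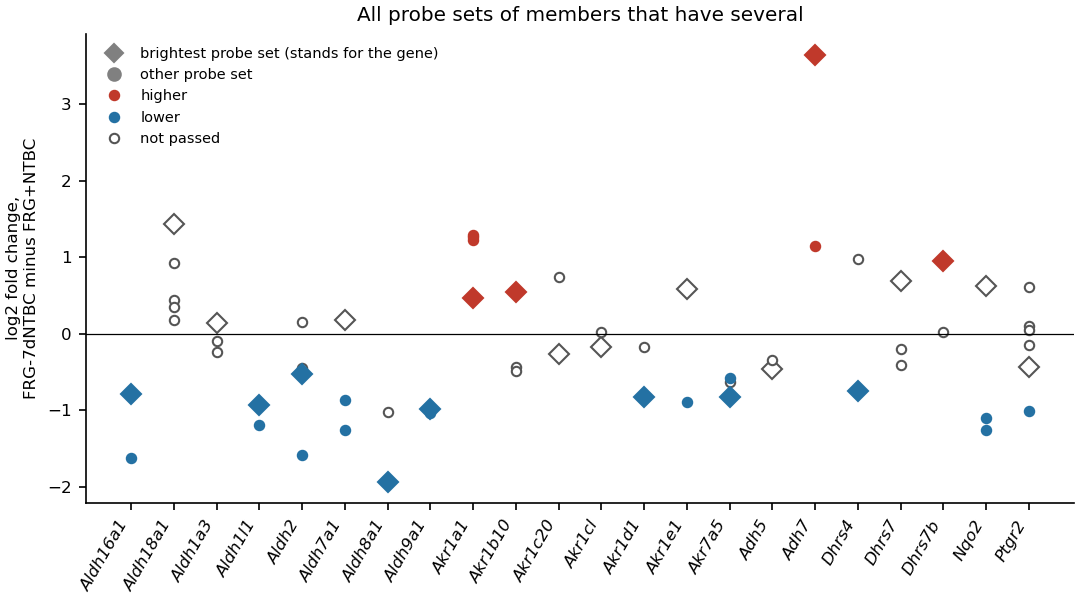
The vertical axis gives the log2 fold change after withdrawal of every probe set of the 22 enzymes that have several, with a diamond for the brightest probe set, which stands for the gene, and circles for the others. Red was higher, blue lower and open not passed; the diamond of Nqo2 lies at 0.62 above its circles at -1.09 and -1.25, and the 4 probe sets of Akr1a1 all lie on the higher side.

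The upstream windows were searched for letters known from antioxidant and xenobiotic control. RefSeq windows were matched for 50 of the 61 members, among them all 17 that were higher. The letters TGACNNNGC, the core of the antioxidant response element to which NRF2 binds, were in none of those 17 windows on either strand, in 1 of 11 windows of lower members and in 3 of 22 of those that did not pass. Of 27025 genes with a window, 11.5% hold them. TGANTCA was in 2 of the 17 (all genes 7.82%) and GCGTG in 2 of the 17 (all genes 30.9%). TGACNNNGC and TGANTCA can overlap, as both start with the same letters. Only 250 bases were searched and elements further away are not covered, so nothing follows about NRF2 itself.

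Related enzymes outside these families also moved both ways. Of 26 measured enzymes in a mixed list of carbonyl, alcohol and other redox metabolism, 6 were higher and 10 lower (median -0.09 on the log2 scale). Of all genes, 17.4% were higher and 12.7% lower, and these shares also stand beside the counts of the shorter lists below. No list was tested as a set. The list also holds enzymes with other substrates, of which Dpyd (pyrimidines), Suox (sulfite) and Cyb5r3 (cytochrome b5) were among the lower genes and Txnrd1 (thioredoxin) among the higher. Monoamine oxidase A (Maoa), which makes aldehydes from amines, rose from 182 ± 43.8 to 1884 ± 527 (3.36 on the log2 scale, SE 0.24, adjusted p = 8.82e-05). Gsta4, which joins lipid aldehydes to glutathione, rose by 2.16 (adjusted p = 0.000938). The aldehyde oxidase Aox3 fell by 2.48 (adjusted p = 0.00151) and Dpyd, which starts pyrimidine breakdown, by 2.12 (adjusted p = 0.000117). Without moderation 6 of all the genes in the related lists were lower, against 13. Of 14 genes of retinoid handling, 3 were higher and 3 lower, among them the carotene oxygenase Bco1 (rise of 2.12), the retinol acyltransferase Lrat (rise of 1.14), the retinol dehydrogenase Rdh16 (fall of 1.99) and Cyp26a1, which degrades retinoic acid (fall of 1.56). Of 8 regulators and reporter genes, 3 were higher and none passed on the lower side. Nfe2l2, the gene of NRF2, rose by 1.66 and the aryl hydrocarbon receptor targets Cyp1a1 and Tiparp by 4.17 and 1.43. Cyp1a1 varied widely after withdrawal (1924, 254 and 1060). Its fellow targets Cyp1a2 (0.66, adjusted p = 0.0899) and Ahrr, which read below the highest Rag2 value, did not pass. Neither did Ahr (0.34), Keap1 (-0.13) or Arnt (-0.64, adjusted p = 0.0601), although the groups of Arnt did not overlap.

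Fah, deleted in both groups and therefore no check of the labels, read 198 ± 16.5 on NTBC and 95.5 ± 20.2 after withdrawal. Median intensity was 35.3 to 36.5 on FRG+NTBC arrays and 33.1 to 34.3 on FRG-7dNTBC arrays. The hepatocyte markers Alb, Ttr and Apoa1 had log2 fold changes of 0.08, -0.01 and -0.08. They read near the highest intensity of any probe set (29532), where a change may not show. Cps1 (-0.73) and Tat (-1.92) were lower. The summed intensity of the 5 hepatocyte markers was 86670 to 89038 on NTBC and 81253 to 83375 after withdrawal. Most of it came from Alb, Ttr and Apoa1. Of 5 macrophage markers, Cd68, Marco and Vsig4 were higher, with sums of 402 to 749 and 746 to 1476. Lyve1 was higher among 5 endothelial markers (sums 659 to 1017 and 1018 to 1249) and Lrat among 5 stellate markers (478 to 658 and 481 to 997). Lrat is also counted among the retinoid genes above. The other markers of these cell types did not pass and lay on both sides. Adgre1 stood at -0.08 and Clec4f at 0.55 (macrophage), Stab2 at -0.01, Kdr at -0.02, Pecam1 at 0.48 and Cdh5 at 0.66 (endothelial). Of the stellate markers, Des stood at -0.37, Col1a1 at -0.06, Pdgfrb at 0.23 and Acta2 at 0.21. None of 5 biliary and progenitor (188 to 221 and 156 to 234), 4 neutrophil (113 to 162 and 119.5 to 205) or 4 T, B and NK cell markers (108 to 111 and 95.3 to 107) passed. Cftr, Mpo, Cd3g and Ncr1 read below the highest Rag2 value. Sox9 stood at 0.65 (adjusted p = 0.068) with groups that did not overlap, and Krt7, Krt19 and Epcam at -0.45, -0.27 and -0.26. The authors reported higher Epcam by RT-qPCR and oval-like cells in liver sections after withdrawal. The part of other cell types in the enzyme values was not tested.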

How the data were processed

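Liver RNA of 3 FRG+NTBC and 3 FRG-7dNTBC mice was hybridised to Affymetrix mouse genome arrays, 1 per mouse. The deposited intensity values are the output of Robust Multiarray Analysis as run by the authors (background corrected, quantile normalized, summarized by median polish), and the labels name the Transcriptome Analysis Console. The values are linear, and their log2 was taken here. Probe sets were named by the array annotation (34945 of 45037 with 1 gene symbol, 932 with several, 9160 with none) and symbols were updated through RefSeq gene IDs for 34741. Each gene was represented by its brightest single-gene probe set. Groups were compared with limma 3.58.1 (lmFit, eBayes) in R 4.3.3 without covariates, with Benjamini-Hochberg adjustment over all probe sets and an adjusted p threshold of 0.05. The test was checked on simulated data.

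The members, gene lists and alternatives were chosen with earlier results of these data known. The text names every member that passed and changed at least 2-fold and the best known members, and further members after their values were seen. From the lists of related enzymes it names genes with large changes. The letters searched before gene starts were chosen after the values were seen. The alternatives tried were array scaling to a shared 75th percentile, a further quantile normalization, keeping only probe sets at an intensity of at least 50 on at least 3 arrays, robust moderation with an intensity trend, unmoderated variances, averaging a gene's probe sets, leaving out _s_at, _x_at and _a_at probe sets, a replicate block, and leaving out each mouse. The number of arrays, 3 per group, limits the precision. Upstream sequences came from RefSeq (GRCm38.p6), since the array values carry no coordinates.

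Equal replicate numbers did not pair the mice: the deviations of same-numbered arrays from their group means correlated at 0.106, 0.0339 and -0.156. Differently numbered arrays reached 0.216. Probe sets that name several genes were not used, except that of Akr1c12 and Akr1c13. Akr1b3, Por and Sord were not analysed here.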

Additional observations from a re-analysis of the deposited data

How the results depend on the processing

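Of the 30 enzymes called, 20 (13 higher, 7 lower) kept their call when any single mouse was left out, and 13 (11 higher, 2 lower) in every alternative that gave them a value: Cbr3, Cbr1, Ptgr1, Nqo1, Adh7, Akr1c12, Akr1c13, Akr1c18, Aldh1a1, Aldh1a7, Ephx1, Aldh8a1 and Aldh5a1. Without moderation 14 calls ended (5 higher, 9 lower). Lower members then numbered 4 against 13 in all. By family, ALDH had 2 higher and 3 lower, AKR 1 lower, ADH 0 lower, and DHRS 0 higher and 0 lower. The related lists had 6 lower, and 3141 of all probe sets were higher and 3336 lower, against 6284 and 6262.

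Scaling to one 75th percentile moved the median of all probe sets from -0.08 to -0.21 and left AKR with 3 higher, put 1 quinone or enone reductase and 1 epoxide hydrolase on the lower side, and gave 9669 probe sets lower in the whole table. The 75th percentile of intensity was 131 to 137 on FRG+NTBC arrays and 142 to 151 on FRG-7dNTBC arrays. The scaling thus lowered every log2 fold change by the same amount. No called member changed direction under it or under quantile normalization. Quantile normalization gave 1 lower in each of the same 2 small families. Without dim probe sets ADH had 1 lower and the epoxide hydrolases 1 lower. With the mean of all probe sets, AKR and the epoxide hydrolases had 1 lower each, and the sign turned for Akr1b10 (-0.12), Akr1c20 (0.24), Akr1e1 (-0.15), Aldh7a1 (-0.65), Dhrs4 (0.12) and Nqo2 (-0.58). This alternative gives no count over the probe sets of the table. Without _s_at, _x_at and _a_at probe sets, AKR, DHRS and the quinone and enone reductases had 1 lower each, and Nqo2 stood at -1.09. The cause of the shifts under the alternatives other than 75th percentile scaling was not tested.

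Leaving out 1 mouse at a time, all members had 13 to 19 higher and 9 to 13 lower, ALDH 4 to 6 and 5 to 6, AKR 3 to 6 and 1 to 2, ADH 1 and 1 to 2, CBR 2 and 0, DHRS 0 to 2 and 2 to 3, the quinone and enone reductases 2 and 0 to 1, and the epoxide hydrolases 1 and 0 to 1. The related lists had 10 to 14 higher and 8 to 11 lower, with 8 without FRG+NTBC replicate 3. The whole table had 4390 to 6815 higher and 3864 to 6400 lower, the lowest count of the latter without FRG+NTBC replicate 2, and it also moved by over 1.5 times when FRG-7dNTBC replicate 1 was left out. In the families such moves came from leaving out any FRG+NTBC mouse (AKR lower, DHRS higher), FRG+NTBC replicate 2 or 3 or FRG-7dNTBC replicate 1 (AKR higher, ADH lower), FRG-7dNTBC replicate 1 or 3 (DHRS higher), FRG+NTBC replicate 1 (quinone and enone reductases, epoxide hydrolases) and FRG-7dNTBC replicate 3 (epoxide hydrolases). The log2 fold change of Adh1 ran from -0.15 to 0.07, of Akr1c14 from -0.19 to 0.07 and of Aldh7a1 from -0.017 to 0.41.

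With the replicate block 19 members were higher and 13 lower. The calls of Akr1a1 (adjusted p = 0.0519) and Akr1b10 (adjusted p = 0.0782) ended, and Akr1b8, Akr1e1, Aldh18a1 and Nqo2 passed on the higher side. Among same-numbered mice, only mice 1 of the groups correlated above 0.1 in their deviations. Some differently numbered mice correlated more, such as FRG+NTBC replicate 3 with FRG-7dNTBC replicate 2 at 0.216. FRG+NTBC replicate 1 with FRG-7dNTBC replicate 3 stood at 0.15. The numbers are therefore not taken as pairs.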
